A study of Mus musculus with 12 samples.

Results

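The cell cycle and DNA replication genes described here are 48 genes, taken by name from the 31870 gene symbols on the array. They divide by role into 20 genes of the G1/S step, when a cell commits to and carries out DNA replication, and 28 genes of the G2/M step, when it divides. Liver RNA of 12 mice was measured on 12 one-colour microarrays, 1 mouse per array, in 4 groups of 3 mice. The first group was FSAP-/- mice after bile duct ligation (BDL), a surgical block of bile flow, and the second was FSAP-/- mice after a sham operation. The third and the fourth were their FSAP+/+ (WT) littermates after BDL and after the sham operation. FSAP, factor VII-activating protease, is a plasma protease encoded by Habp2, and FSAP-/- mice are called FSAP-deficient below. All mice came from heterozygous crosses on a background backcrossed to BALB/c only to the F3 generation, were 20 to 30 weeks old, and were killed 2 weeks after surgery. The sex of the mice and the deleted part of Habp2 are not given in the labels.

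In a resting adult liver most hepatocytes and duct cells sit outside the cell cycle and re-enter it after injury. Entry is driven by cyclins D and E and by E2F factors, which switch on the genes that license replication origins, unwind DNA and supply nucleotides. Later, B-Myb and FOXM1 act on the genes of mitosis, whose products condense chromosomes, build the spindle, check kinetochores and split the cell. The DREAM complex holds both sets down in resting cells, through E2F sites at many G1/S promoters and through CHR elements, often beside CCAAT boxes, at many G2/M promoters. RNAs of the 2 sets therefore mark different stretches of the cycle.

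A level below is the log2 of a probe's processed signal minus the 75th percentile of its array on the same scale, so 0 is that percentile. Each gene is read by its brightest probe, and levels are compared between arrays, not between genes. On the arrays, 54.5% to 62.3% of spots were well above background, and arrays of 1 group correlated at 0.971 to 0.993. Habp2 stood between 4.97 and 5.51 on the 6 WT arrays and between -7.18 and -3.45 on the 6 FSAP-deficient arrays, in accord with every genotype label. The summed signal of 10 hepatocyte markers was 2026 to 3985 times the 75th percentile across the arrays of both BDL groups, and all 10 were tested. A Y-linked gene, Ddx3y, had signal on FSAP-deficient BDL replicates 1 and 2 and on FSAP-deficient sham replicate 1, at 1.15, 1.03 and 1.54, so sex was not balanced between the groups. No WT array had it, so genotype and sex cannot be fully told apart, and the part of sex in the results was not tested. The arrays lay on 4 slides, and no slide held both BDL groups or both sham groups. After BDL and after sham, genotype and slide therefore cannot be told apart within a slide. With slide as a fixed term, the genotypes can be compared only through arrays of the other operation.

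All 48 genes had a probe, and 43 entered the test, since a gene needed a signal well above background on 3 or more of the 12 arrays. These were 19 of the 20 G1/S genes and 24 of the 28 G2/M genes. Ccne2 (cyclin E2), Aurkb (a kinase of the chromosomal passenger complex) and Ncapg (a condensin subunit) were not well above background on any array. Cenpf, a kinetochore protein, and Ttk, a spindle checkpoint kinase, were each above it on 1 WT BDL array. Another 7, Cdc6, Top2a, Bub1, Bub1b, Kif4, Kif11 and Kif2c, were not above background on any sham array and so entered the test through BDL arrays alone, where they had to be high. The tests were made with limma on 19531 genes, and a gene was called where its adjusted p was under 0.05 over all of them.

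In FSAP-deficient livers, BDL was accompanied by higher RNA of genes from every stretch of the cycle. Of the 43 tested genes, 32 rose and 2 fell, where 16.2% of all tested genes rose and 22.8% fell. With slide as a fixed term in the fit, 14 rose, 1 fell, and 10.2% of all tested genes rose. Leaving aside the 7 genes seen on BDL arrays alone, 25 of 36 rose, 12 of 18 in G1/S and 13 of 18 in G2/M, against 14% of all tested genes above background on a sham array. Among the G1/S genes 13 of 19 rose and 2 fell, with a median log2 change of 1.54. Among the G2/M genes 19 of 24 rose and none fell by the limma test, with a median of 3.19, while the median over all tested genes was -0.16. Several G2/M genes were not measurable in sham livers, and with those genes set to their lower bound the G2/M median was 3.00. Under normexp background correction in place of the scanner's own, it was 1.36. The 3 BDL arrays lay above all 3 sham arrays for 38 of the 43 genes, against 18.9% of all tested genes, and below them for Tk1 and Tyms, against 28.7%. The 38 include all 7 genes seen on BDL arrays alone, where they had to be high. In whole liver RNA, more cells in cycle and more RNA per cycling cell cannot be told apart.

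**Figure D1:**
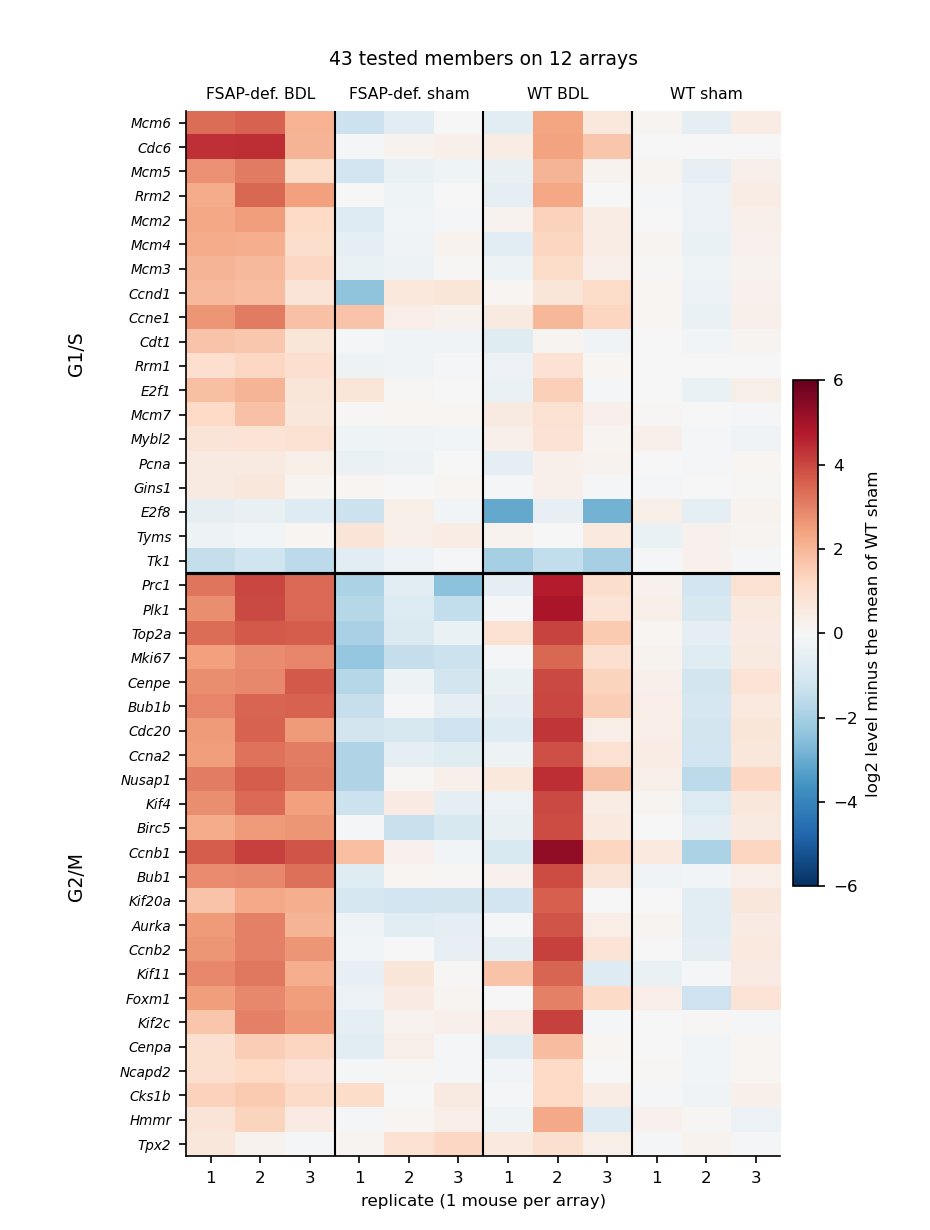
Level of each of the 43 tested genes (rows, G1/S above the line and G2/M below it) on each of the 12 arrays (columns, 3 mice per group), as log2 level minus the mean of the 3 WT sham arrays. The FSAP-deficient BDL columns are red over most rows, and WT BDL replicate 2 is darkest over the G2/M rows, where it is the highest of the 12 arrays for 22 of 24 genes.

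The clearest G1/S change was in the machinery that licenses and opens replication origins. Of 9 such genes tested, 8 rose in FSAP-deficient livers after BDL, with a median log2 change of 2.01 over the 9. Over all tested genes 16.2% rose. Without Cdc6, which entered the test through BDL arrays alone, 7 of 8 rose, with a median of 1.99. Mcm2 to Mcm7 encode the ring of the replicative helicase, and all 6 rose. Mcm6 had the largest fitted change of the G1/S genes. Its levels were 2.74, 2.90 and 1.46 in FSAP-deficient BDL livers, against -1.89, -1.25 and -0.60 in FSAP-deficient sham livers. No BDL array came near the sham arrays, and the change was 3.61 ± 0.68 (SE, n = 3 each), or 12.2-fold, with a limma adjusted p of 0.0020. Mcm2 stood at 0.32, 0.53 and -0.80 after BDL, against -2.75, -2.14 and -2.08 after sham, a change of 2.34 ± 0.39 (limma adjusted p 0.0010). Mcm5 stood at 0.84, 1.24 and -0.80 after BDL and at -3.05, -2.30 and -2.15 after sham, a change of 2.93. For all 3 genes, replicate 3 was the lowest BDL array and still lay above every sham array. The Mcm6 probe lies at chr1:130228178-130228237 on mm9. Mcm4 changed by 2.01, Mcm3 by 1.96 and Mcm7 by 1.11. Cdt1 and Cdc6 load the helicase onto origins, and both rose. Cdt1 stood at 2.16, 2.10 and 1.18 after BDL, against 0.33, 0.25 and 0.25 after sham, a change of 1.54 ± 0.28 (limma adjusted p 0.0017). Cdc6 was well above background on 2 BDL arrays and no sham array, and was at least 2.98-fold higher after BDL (limma adjusted p 0.00128), so its call rests on detection after BDL. Gins1, a subunit of the GINS helicase cofactor, was not called, with a change of 0.39.

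Genes of nucleotide supply moved in opposite directions. Rrm1 and Rrm2 encode the large and small subunits of ribonucleotide reductase, which makes deoxynucleotides, and both rose in FSAP-deficient livers after BDL. Rrm2 stood at 0.02, 1.23 and 0.28 in FSAP-deficient BDL livers, against -2.21, -2.47 and -2.22 in FSAP-deficient sham livers, a change of 2.81 ± 0.61 (limma adjusted p 0.0045). Rrm1 rose by 1.30. Pcna, the sliding clamp of DNA polymerase, stood at 2.51, 2.52 and 2.31 after BDL and at 1.58, 1.68 and 1.92 after sham. Its change of 0.72 ± 0.22 was small beside those of the helicase genes and passed the test (limma adjusted p 0.0255). The Pcna call was lost in 7 of 24 alternatives. The 2 thymidylate enzymes were lower. Tk1, thymidine kinase of the salvage route, read at chr11:117676845-117676904 on mm9, stood at 1.24, 1.48 and 1.10 after BDL, against 2.04, 2.30 and 2.58 after sham, and fell by 1.03 on the log2 scale (SE 0.20, limma adjusted p 0.0027). Tyms, thymidylate synthase of the de novo route, stood at -4.39, -4.27 and -3.97 after BDL and at -3.34, -3.76 and -3.68 after sham, and fell by 0.62 (SE 0.22, limma adjusted p 0.0455). The Tyms call was lost in 14 of 24 alternatives, where its limma adjusted p reached 0.291 with slide as a fixed term, and its sign turned in 0. The groups did not overlap for either gene. Afmid, which lies next to Tk1 on chromosome 11, also fell, with changes of -1.64 in FSAP-deficient and -1.67 in WT livers, and whether the Tk1 probe reads Afmid transcripts was not tested.

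Of 5 tested regulators of G1/S, 2 rose in FSAP-deficient livers, Ccne1 and Mybl2, where 16.2% of all tested genes rose. Ccne1, cyclin E1, stood at 0.83, 1.32 and -0.06 after BDL, against -0.09, -1.40 and -1.53 after sham, a change of 1.70 ± 0.48 (limma adjusted p 0.0171). The lowest BDL array and the highest sham array were almost level. Mybl2, which encodes B-Myb, rose by 1.05. Ccnd1, cyclin D1, stood at 3.79, 3.66 and 2.61 after BDL and at -0.60, 2.46 and 2.56 after sham. Sham replicate 1, alone on the fourth slide and the only sham array with Ddx3y signal, lay far below the others. The change of 1.88 ± 0.71 missed the threshold (limma adjusted p 0.0576). E2f1, an activating E2F factor, stood at -0.48, -0.27 and -1.58 after BDL, against -1.58, -2.23 and -2.34 after sham, and its change of 1.27 ± 0.48 also missed it (limma adjusted p 0.0551). E2f8, an E2F family repressor, had a change of -0.22 and was not called.

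The G1/S promoters shown here are those of 4 G1/S genes that rose in FSAP-deficient livers, taken by the fitted change, which for Cdc6 rests on sham arrays below background. Each line gives the 200 bases before the transcription start, 5' to 3' on the gene's strand, from RefSeq on GRCm38.p6. Capitals mark E2F cores (the letters TTCCCGC, the form TTGGCGC, the form TTGCCGC and the form TTCGCGC), CHR elements (the letters TTTGAA and the form TTCGAA) and CCAAT boxes, on either strand, and neighbouring cores can overlap.
Mcm6, chr1:128359706-128359905, minus strand: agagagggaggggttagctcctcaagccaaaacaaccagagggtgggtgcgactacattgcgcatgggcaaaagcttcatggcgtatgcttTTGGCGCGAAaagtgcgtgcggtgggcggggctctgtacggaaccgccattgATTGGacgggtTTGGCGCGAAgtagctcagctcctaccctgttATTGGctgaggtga
Cdc6, chr11:98907951-98908150, plus strand: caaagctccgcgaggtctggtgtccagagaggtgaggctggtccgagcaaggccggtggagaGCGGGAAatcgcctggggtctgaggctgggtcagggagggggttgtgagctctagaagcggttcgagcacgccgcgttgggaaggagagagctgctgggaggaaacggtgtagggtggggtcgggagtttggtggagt
Mcm5, chr8:75109309-75109508, plus strand: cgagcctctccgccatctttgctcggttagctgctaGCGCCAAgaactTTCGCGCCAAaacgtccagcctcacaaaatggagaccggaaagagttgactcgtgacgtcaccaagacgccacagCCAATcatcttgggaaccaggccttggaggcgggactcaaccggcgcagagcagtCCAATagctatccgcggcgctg
Rrm2, chr12:24708054-24708253, plus strand: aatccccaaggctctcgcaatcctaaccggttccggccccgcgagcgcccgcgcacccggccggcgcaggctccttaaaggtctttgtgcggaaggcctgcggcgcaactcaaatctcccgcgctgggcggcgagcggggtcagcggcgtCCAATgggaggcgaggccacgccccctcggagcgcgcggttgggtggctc
Mcm6 holds 4 E2F core matches in this stretch, Mcm5 holds 3 and Cdc6 holds 1. Rrm2 holds none here and 1 in the whole window of 250 bases before to 50 bases after the start. Over that window, 16 of the 20 G1/S genes matched an entry, and 9 of the 16 (56.3%) held an E2F core, against 5 of 23 matched G2/M genes (21.7%) and 10.9% of 27025 genes. A match is a description of the letters, not of binding.

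In the main setting the G2/M genes gave the largest changes. The size of these depends on sham levels near background. Across the alternatives Prc1 and Top2a ran as low as 2.68 and 1.60, and Mcm6, a G1/S gene, as low as 2.96. Chromosome structure genes rose in all 3 tested cases in FSAP-deficient livers, with a median change of 4.43, where 16.2% of all tested genes rose. Without Top2a, which entered the test through BDL arrays alone, 2 of 2 rose, with a median of 2.74. Mki67 encodes the Ki-67 protein, which coats mitotic chromosomes and marks cycling cells. It stood at 0.72, 1.09 and 1.21 in FSAP-deficient BDL livers, against -4.07, -3.18 and -3.04 in FSAP-deficient sham livers. The groups lay far apart, and the change was 4.43 ± 0.72 (SE, n = 3 each), or 21.6-fold, with a limma adjusted p of 0.00086. Its probe lies at chr7:142881591-142881650 on mm9. Top2a, read at chr11:98855522-98855581, topoisomerase II alpha, which untangles sister DNA, stood at -1.91, -1.58 and -1.62 after BDL. It was not well above background on any sham array and was at least 9.43-fold higher after BDL (limma adjusted p 0.00051). Ncapd2, a condensin subunit, rose by 1.04.

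Of 11 tested mitotic cyclins, kinases, checkpoint genes and regulators, 9 rose in FSAP-deficient livers, with a median change of 3.20. Over all tested genes 16.2% rose. Without Bub1 and Bub1b, which entered the test through BDL arrays alone, 7 of 9 rose, with a median of 3.20. Plk1, a kinase of mitotic entry and exit, stood at -0.58, 0.55 and 0.02 after BDL, against -5.11, -4.21 and -4.85 after sham, a change of 4.72 ± 1.03 (limma adjusted p 0.0045). It was well above background on 1 of these sham arrays. Cdc20, which activates the anaphase-promoting complex, stood at 0.64, 1.66 and 0.64 after BDL and at -3.02, -2.85 and -3.12 after sham, a change of 3.98 (limma adjusted p 0.0108). Birc5, survivin, stood at 0.95, 1.27 and 1.35 after BDL, against -1.41, -2.61 and -2.24 after sham, a change of 3.28 ± 0.86 (limma adjusted p 0.012). In each of these 3 genes the BDL arrays were all above the sham arrays by a wide gap. Ccna2 (cyclin A2) rose by 3.97, Aurka (the spindle pole kinase Aurora A) by 3.01, Ccnb2 (cyclin B2) by 2.98 and Foxm1 by 2.52. Like Plk1, Ccna2 was well above background on 1 FSAP-deficient sham array. Across the alternatives the changes ran as low as 2.72 for Plk1 and 2.09 for Ccna2. The checkpoint genes Bub1b and Bub1 were below background in sham livers and were at least 4.30-fold and at least 2.44-fold higher after BDL. Ccnb1, cyclin B1, stood at -1.11, -0.64 and -0.96 after BDL and at -2.91, -4.49 and -4.90 after sham. Its arrays did not overlap, but the change of 3.20 ± 1.32 was not called (limma adjusted p 0.0787). Its spread was wide in every group except FSAP-deficient BDL. Cks1b, a small subunit bound to cyclin-dependent kinases, had a change of 0.82 and was not called.

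Spindle, kinetochore and cytokinesis genes rose in 7 of 10 tested cases in FSAP-deficient livers, with a median change of 2.90, where 16.2% of all tested genes rose. Prc1, which bundles microtubules of the central spindle, had the largest fitted change of all 43 genes. It stood at -0.81, -0.04 and -0.64 after BDL, against -5.94, -4.73 and -6.48 after sham, a change of 5.22 ± 1.08 (limma adjusted p 0.0035), with 1 sham array well above background. Cenpe, a kinetochore motor, rose by 4.17, and Kif20a, a cytokinesis motor, by 3.15. Each was also well above background on 1 FSAP-deficient sham array. Across the alternatives the changes ran as low as 2.34 for Cenpe and 1.55 for Kif20a. Nusap1, which bundles spindle microtubules, was at least 8.41-fold higher, and the motors Kif4, Kif11 and Kif2c were at least 2.79-fold, 1.75-fold and 1.39-fold higher, all against sham arrays below background. Across the alternatives the Kif2c call was lost in 13 of 23 and the Kif11 call in 6 of 24. Their changes ran as low as 0.12 and 0.34. Kif2c was well above background on 2 of the 3 BDL arrays. Without Kif4, Kif11 and Kif2c, 4 of 7 genes of this set rose. Cenpa, the centromeric histone, had a change of 1.38 and was not called (limma adjusted p 0.0514), nor was Hmmr, a hyaluronan-binding spindle protein, at 0.73. Tpx2, which activates Aurora A on the spindle, stood at -3.73, -4.19 and -4.46 after BDL and at -4.25, -3.51 and -3.16 after sham. That change of -0.49 depended on the probe: a second Tpx2 probe, well above background on 6 arrays, changed by 4.92 in FSAP-deficient and 2.14 in WT livers. Of 8 genes with more than 1 probe well above background on 3 or more arrays, 7 had probes that agreed in sign in FSAP-deficient livers. Cdc6 and Foxm1 also had a second probe, above background on 2 arrays and 1 array. In WT livers the second Cdc6 probe changed by -0.12, against 1.51 for the probe used.

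The G2/M promoters shown here are those of 4 G2/M genes that rose in FSAP-deficient livers, taken by the fitted change, which for Top2a rests on sham arrays below background, in the same layout and with the same capitals.
Prc1, chr7:80294251-80294450, plus strand: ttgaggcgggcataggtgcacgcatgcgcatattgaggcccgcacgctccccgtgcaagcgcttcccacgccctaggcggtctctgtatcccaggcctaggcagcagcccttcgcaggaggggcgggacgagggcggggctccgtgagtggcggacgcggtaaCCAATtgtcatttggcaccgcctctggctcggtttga
Plk1, chr7:122159235-122159434, plus strand: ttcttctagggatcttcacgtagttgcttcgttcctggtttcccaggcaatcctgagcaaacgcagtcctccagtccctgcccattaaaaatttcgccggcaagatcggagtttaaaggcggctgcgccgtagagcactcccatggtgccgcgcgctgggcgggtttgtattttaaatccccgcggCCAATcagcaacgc
Top2a, chr11:99024190-99024389, minus strand: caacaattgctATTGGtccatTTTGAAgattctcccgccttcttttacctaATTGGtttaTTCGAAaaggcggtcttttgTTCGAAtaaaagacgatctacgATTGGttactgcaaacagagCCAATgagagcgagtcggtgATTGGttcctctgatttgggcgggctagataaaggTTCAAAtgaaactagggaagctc
Mki67, chr7:135716380-135716579, minus strand: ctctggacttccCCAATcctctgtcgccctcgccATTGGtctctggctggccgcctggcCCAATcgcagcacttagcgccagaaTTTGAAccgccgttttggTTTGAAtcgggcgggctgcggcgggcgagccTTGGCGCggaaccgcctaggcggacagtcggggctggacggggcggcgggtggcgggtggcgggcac
Top2a holds 4 CHR matches and 5 CCAAT boxes in these 200 bases, and Mki67 holds 2 and 3. Prc1 and Plk1 each hold 1 CCAAT box here and 1 CHR match in the whole window. Over whole windows, 18 of 23 matched G2/M genes (78.3%) held both a CHR and a CCAAT box, against 3 of 16 matched G1/S genes (18.8%) and 8.61% of 27025 genes. The letters searched thus differed between the sets in this window, and no occupancy was measured.

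**Figure D2:**
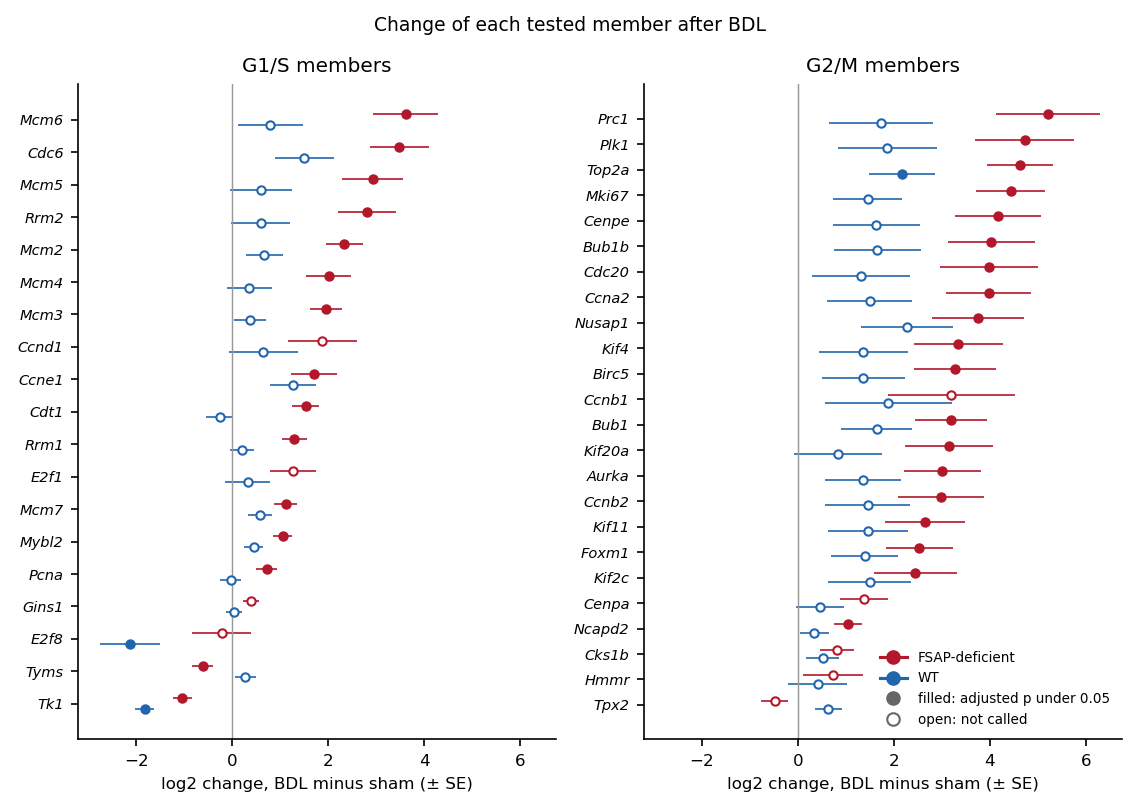
Log2 change of each tested gene from limma (horizontal axis, BDL minus sham, bars are ± SE, 3 mice per group) in FSAP-deficient livers (red) and WT livers (blue), with filled points called at adjusted p under 0.05. In FSAP-deficient livers 32 points are filled on the positive side, from Pcna at 0.72 to Prc1 at 5.22, and in WT livers the filled points are Top2a, E2f8 and Tk1.

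In WT livers the same comparison called 1 gene higher and 2 lower of 43, where 15.1% of all tested genes rose and 17.7% fell. The fitted change was positive for 39 of the 43 genes, with a median of 0.37 for G1/S genes and 1.45 for G2/M genes, and -0.03 for all tested genes. With array weights 33 genes rose, as did 23.2% of all tested genes. Without WT BDL replicate 1, 13 rose, against 14.5% of all tested genes, and without replicate 2 none (0) did, against 11.5%. The medians also moved, to -0.10 for G1/S and 0.22 for G2/M genes without replicate 2. With slide as a fixed term, which sets only WT BDL replicate 1 against WT sham arrays, they were -0.36 and -0.22. BDL arrays lay above all sham arrays for Ccne1, Mcm7, Cdc6, Top2a and Tpx2, against 24.1% of all tested genes, and below them for Tk1, against 28%. Of these, Cdc6 and Top2a were seen on BDL arrays alone. At an unadjusted p under 0.05, limma gave 7 genes higher, against 19.9% of all tested genes. Top2a was at least 3.52-fold higher (limma adjusted p 0.0332), and it entered the test through BDL arrays alone. Its levels were -4.35, -1.21 and -3.72 in WT BDL livers, against -5.16, -5.85 and -4.78 in WT sham livers, where it was not well above background. Tk1 stood at 0.66, 1.19 and 0.69 after BDL, against 2.55, 2.93 and 2.53 after sham, and fell by 1.82 (SE 0.20, limma adjusted p 0.000117). It thus fell in both genotypes, and the 6 BDL arrays all lay below the 6 sham arrays. E2f8 stood at -4.64, -2.08 and -4.43 after BDL and at -1.24, -2.13 and -1.38 after sham. It fell by 2.13 (SE 0.62, limma adjusted p 0.0226), although BDL replicate 2 lay among the sham arrays.

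The 3 WT BDL mice differed widely from each other in many of the other genes. Mki67 stood at -1.81, 1.73 and -0.76 in WT BDL livers, against -1.55, -2.46 and -1.20 in WT sham livers. Plk1 stood at -3.51, 1.51 and -2.56 after BDL, against -3.03, -4.34 and -2.78 after sham. Ccnb1 stood at -5.65, 0.59 and -3.46 after BDL, against -4.16, -6.61 and -3.41 after sham. In each, replicate 2 was far above every sham array, replicate 3 lay near the highest of them, and replicate 1 lay within their range. The same was seen for Cdc20, at -2.66, 2.39 and -1.49 after BDL and -1.51, -2.99 and -1.18 after sham, and for Birc5, at -1.70, 2.63 and -0.68 after BDL and -1.32, -1.80 and -0.72 after sham. Among G1/S genes, Mcm6 stood at -1.25, 1.77 and 0.04 after BDL, against -0.45, -1.22 and -0.17 after sham. Mcm2 stood at -1.78, -0.61 and -1.56 after BDL, against -1.94, -2.33 and -1.69 after sham. Rrm2 stood at -2.74, 0.11 and -2.19 after BDL, against -2.31, -2.54 and -1.76 after sham, with replicate 2 the one BDL array above the sham range, whereas for Mcm6 and Mcm2 replicate 3 also lay slightly above it. Pcna, at 1.37, 2.29 and 2.16 after BDL and 1.96, 1.85 and 2.10 after sham, had replicates 2 and 3 slightly above the sham arrays and replicate 1 well below them.

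**Figure D3:**
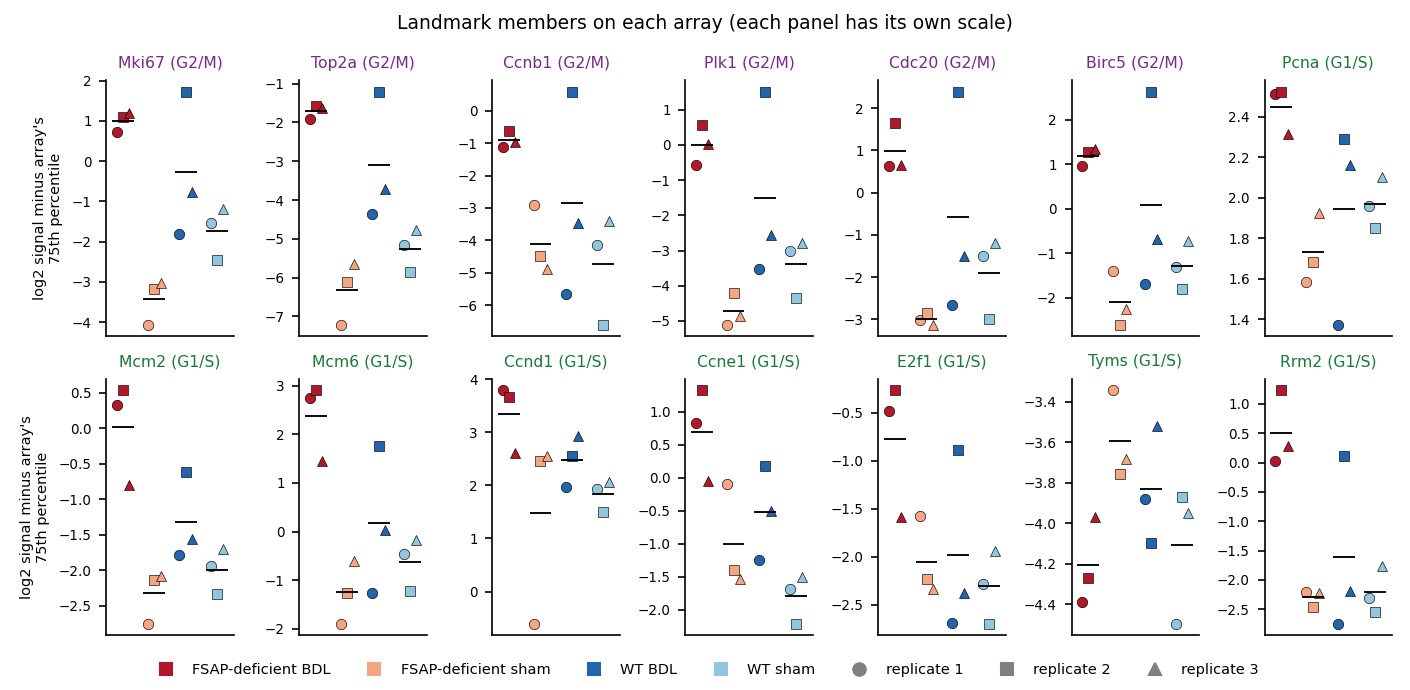
Levels of 14 genes chosen by role on each array, 6 of G2/M and 8 of G1/S (vertical axis, log2 signal minus the array's 75th percentile, own scale per panel), with points for the 3 mice of each group, symbols for replicate number and bars for group means. In the G2/M panels WT BDL replicate 2 (blue square) is above all FSAP-deficient BDL points, and in the G1/S panels it is not.

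Replicate 2 of the WT BDL group separated the phases. It was the highest of all 12 arrays for 22 of the 24 G2/M genes and for none of the 19 G1/S genes, against 6.92% of all tested genes. The exceptions among G2/M genes were Tpx2 and Cks1b. It lay above all 3 FSAP-deficient BDL arrays for 23 of the 24 G2/M genes and 0 of the 19 G1/S genes, against 25.8% of all tested genes. It lay below all 3 for Ccnd1, Cdt1, Mcm3, Pcna and Rrm1, against 22.3%. Even so it was above every WT sham array for 16 G1/S and 24 G2/M genes. Replicate 3 was above them for 11 and 14, and replicate 1 for 3 and 4. Over all tested genes that share ran from 37.2% to 38.8% on the 3 arrays, so replicate 1 stood above the sham arrays in fewer of the 43 genes than among all genes. Replicate 1 was the lowest array of its group for 15 of 19 G1/S and 20 of 24 G2/M genes, against 34.2% of all tested genes. Its 75th percentile signal, 475, was also the lowest of the 12 arrays, and the part of this in its levels was not tested.

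The per-array medians show the same contrast. As log2 level minus the WT sham mean, the G1/S median was 1.83, 1.83 and 0.91 on the FSAP-deficient BDL arrays, and the G2/M median was 2.54, 3.02 and 2.62. On the WT BDL arrays the G1/S median was -0.36, 0.93 and 0.20, and the G2/M median was -0.22, 3.91 and 0.68. Sham arrays lay between -0.33 and 0.19 for G1/S and between -0.67 and 0.57 for G2/M. The G2/M median exceeded the G1/S median by 0.71, 1.19 and 1.71 on the FSAP-deficient BDL arrays and by 0.15, 2.98 and 0.48 on the WT BDL arrays. FSAP-deficient mice also differed among themselves by phase. FSAP-deficient BDL replicate 3 was the lowest of its group for 16 of 19 G1/S genes but 8 of 24 G2/M genes, against 38.6% of all tested genes. It was also the only array of its group without Ddx3y signal, and the part of sex was not tested. FSAP-deficient BDL replicate 1 was lowest for 3 of 19 G1/S and 16 of 24 G2/M genes, against 31.9%.

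**Figure D4:**
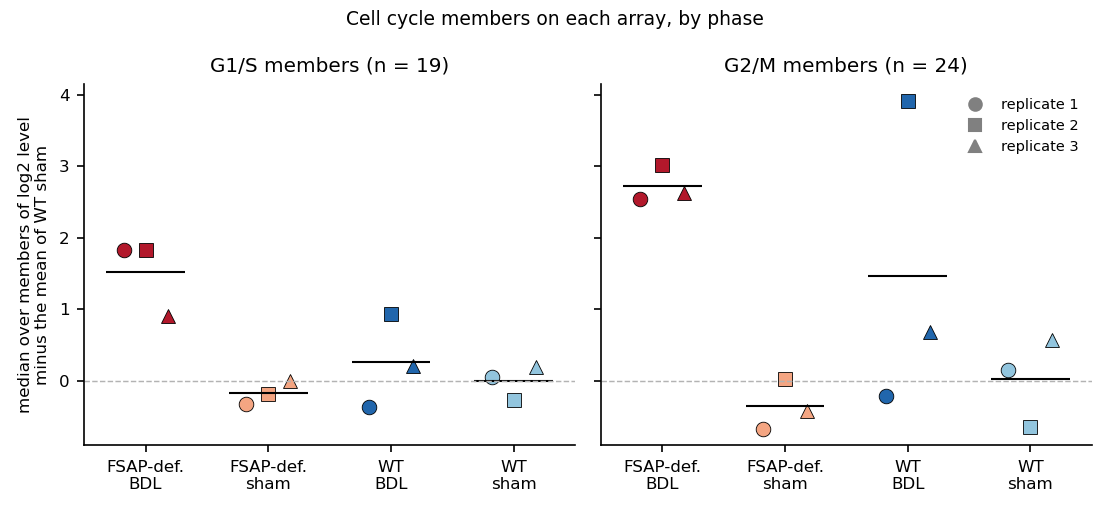
Median over the 19 G1/S genes (left) and the 24 G2/M genes (right) of log2 level minus the WT sham mean, 1 point per mouse, with group means as bars. FSAP-deficient BDL arrays lie between 0.91 and 1.83 for G1/S and between 2.54 and 3.02 for G2/M, and WT BDL replicate 2 reaches 0.93 and 3.91.

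On the slides the BDL and sham arrays of 1 genotype can be set side by side only in part. On slide 3, which held the 3 FSAP-deficient BDL arrays and FSAP-deficient sham replicate 3, the median difference was 1.56 for G1/S genes and 3.21 for G2/M genes, positive for 16 of 19 and 23 of 24. Among tested genes outside the list the difference on slide 3 was positive for 7786 of 19488, with a median of -0.17. On slide 1, which held WT BDL replicate 1 and the 3 WT sham arrays, the median difference was -0.36 and -0.22, positive for 7 of 19 and 6 of 24. Among tested genes outside the list the difference on slide 1 was positive for 9833 of 19488, with a median of 0.0061. That slide holds the lowest WT BDL array and neither of the other two, which shared slide 2 with FSAP-deficient sham replicate 2.

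Set directly against each other after BDL, FSAP-deficient and WT livers gave 0 called genes of 43 by limma, where 0.123% of all tested genes were called higher and 0.0922% lower. At an unadjusted p under 0.05, 15 of 19 G1/S genes and 2 of 24 G2/M genes were higher in FSAP-deficient livers, against 6.53% of all tested genes. The 15 included all 9 licensing genes, and the G2/M genes were Cks1b and Ncapd2. The median log2 difference was nonetheless similar in both sets, 1.22 for G1/S and 1.28 for G2/M genes, against -0.03 for all tested genes. With slide as a fixed term, which compares these groups only through FSAP-deficient sham arrays, they were 0.67 and 0.73. FSAP-deficient arrays all lay above WT arrays for Pcna, Rrm1, Mcm3 and Cdt1, against 6.65% of all tested genes. Cdt1 was nearest to a call, at 2.16, 2.10 and 1.18 in FSAP-deficient BDL livers and -0.27, 0.65 and 0.23 in WT BDL livers, a difference of 1.61 ± 0.28 (limma adjusted p 0.0533). The largest fitted differences were 2.18 ± 0.68 for Mcm6 (limma adjusted p 0.211) among G1/S genes and 1.94 ± 1.32 for Ccnb1 (limma adjusted p 0.580) among G2/M genes. The lowest were -0.38 for Tyms and -0.35 for Tpx2, which turned to 0.58 with its probes averaged. Ddx3y signal was on 2 FSAP-deficient BDL arrays and 0 WT BDL arrays, and the part of sex in these differences was not tested.

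The comparison after BDL turned on a single WT mouse. The FSAP-deficient mean minus WT BDL replicate 1 had a median of 1.91 over G1/S genes and 2.79 over G2/M genes. Minus replicate 3 it was 1.40 and 1.99, but minus replicate 2 it was 0.28 and -1.0, with 16 of 19 G1/S genes positive and 23 of 24 G2/M genes negative. Without WT BDL replicate 2, limma called 12 genes higher in FSAP-deficient livers, where 0.384% of all tested genes were then called higher, and the medians were 1.69 and 2.37. These were 4 G1/S genes, Rrm2, Rrm1, Cdt1 and Mcm3, and 8 G2/M genes, Bub1, Ncapd2, Kif20a, Aurka, Ccnb2, Plk1, Kif2c and Cdc20. Rrm2 then differed by 2.98 (limma adjusted p 0.0108), Plk1 by 3.04 and Cdc20 by 3.06 (limma adjusted p 0.0493). Without WT BDL replicate 1 the medians were 0.86 and 0.52. These values describe how far the comparison rests on 1 mouse.

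**Figure D5:**
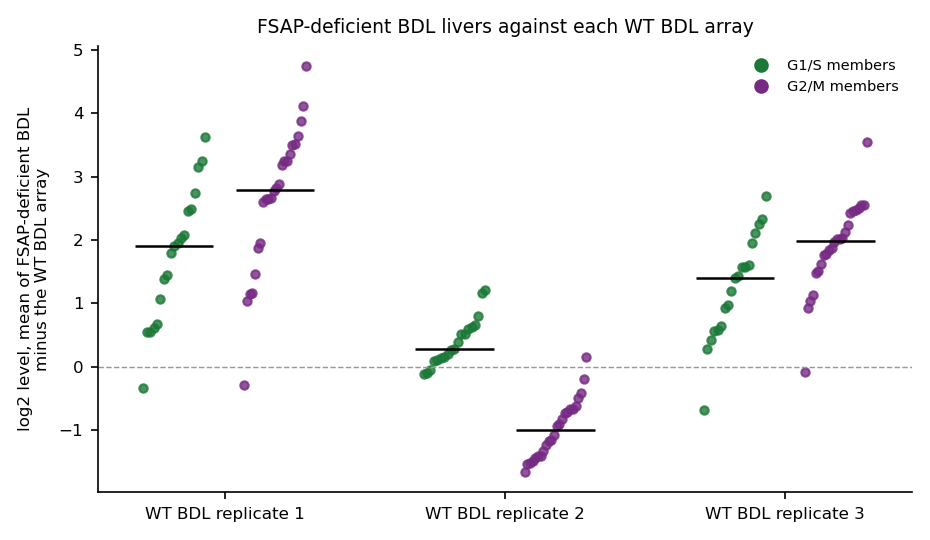
Mean level of the 3 FSAP-deficient BDL arrays minus each WT BDL array (vertical axis, log2), 1 point per gene, G1/S genes in green and G2/M genes in purple, with medians as bars. Against replicates 1 and 3 both sets lie mostly above 0, and against replicate 2 the G1/S median is 0.28 and the G2/M median is -1.0.

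In sham livers limma called 0 of the 43 genes between genotypes, where 0.00512% of all tested genes were called higher in FSAP-deficient livers and 0.0102% lower. At an unadjusted p under 0.05, Tyms and Tpx2 were higher and Mki67 was lower, against 5.45% and 2.43% of all tested genes. The Tpx2 difference depended on the probe, and was -0.25 with its probes averaged. The median difference was -0.22 for G1/S and -0.46 for G2/M genes, against 0.04 for all tested genes, and Top2a, Bub1, Bub1b, Kif4, Kif11 and Kif2c were below background on all sham arrays. With slide as a fixed term the medians were -0.98 and -2.78. No slide held both sham groups, so that fit reached them only through BDL arrays, WT BDL replicate 2 among them. Mki67, measured on all sham arrays, stood lower on every FSAP-deficient array, at -4.07, -3.18 and -3.04, against -1.55, -2.46 and -1.20 in WT livers. That difference of -1.69 ± 0.72 was not called (limma adjusted p 0.599). The interaction, the BDL change in FSAP-deficient livers minus that in WT livers, was called for 0 of the 43 genes by limma, where 0.0102% of all tested genes were called positive and 0% negative. At an unadjusted p under 0.05 it was positive for 14 genes, 11 of them G1/S, and negative for Tyms and Tpx2, against 5.92% and 7.77% of all tested genes. With its probes averaged Tpx2 turned positive, at 0.83. The median interaction was 1.23 over G1/S and 1.60 over G2/M genes, and Cdt1 stood at 1.79 (limma adjusted p 0.125). The G2/M median was 0.98 without WT BDL replicate 1 and 2.94 without replicate 2, and with slide as a fixed term the medians were 1.89 and 3.46. That slide fit sets FSAP-deficient BDL arrays against FSAP-deficient sham replicate 3 alone, and WT BDL replicate 1 alone against WT sham arrays. Without WT BDL replicate 2, Kif20a was called, at 3.69 (limma adjusted p 0.0462). A BDL change called in FSAP-deficient livers and not in WT livers is therefore not shown to differ between them.

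Further genes of the pathway were listed by role. Of 37 other G1/S and replication genes tested, 17 rose and 3 fell after BDL in FSAP-deficient livers, with a median change of 0.53. Over all tested genes 16.2% rose and 22.8% fell there. Among the 37, Hells, Dtl and Exo1 were not well above background on any sham array and entered the test through BDL arrays alone. Uhrf1, which carries DNA methylation through replication, rose by 5.17 (limma adjusted p 0.00017), Dtl, a Cdt1 ubiquitin ligase adaptor, was at least 8.69-fold higher and Exo1, a repair nuclease, at least 6.98-fold higher. Mcm10, a replication initiation factor, fell by 3.01. Of 44 other G2/M genes tested, 31 rose and 0 fell, with a median change of 2.53. Among the 44, Ndc80, Nuf2, Espl1, Ckap2l, Melk, Pbk and Cenpn also entered through BDL arrays alone, where they had to be high. The median thus includes sham levels below background. Cdk1, the kinase of mitotic cyclins, stood at -1.85, -1.85 and -2.09 in FSAP-deficient BDL livers, against -5.07, -5.68 and -6.02 in FSAP-deficient sham livers, a change of 3.66 ± 1.10 (limma adjusted p 0.0225). It was well above background on 1 of these sham arrays. In WT livers it stood at -6.13, -0.82 and -3.87 after BDL and -4.57, -6.78 and -3.94 after sham, and the change of 1.49 was not called. In WT livers 8 of the 37 other G1/S genes rose and 4 fell, and 7 of the 44 other G2/M genes rose and 0 fell. In WT livers 15.1% of all tested genes rose and 17.7% fell, and the G2/M count is near that share of rises. WT BDL replicate 2 was the highest of the 12 arrays for 27 of these 44 G2/M genes and 3 of the 37 G1/S genes.

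Of 21 inhibitors of the cycle, 7 were higher and 1 lower in FSAP-deficient livers after BDL, where 16.2% and 22.8% of all tested genes were. In WT livers 4 were higher and 5 lower, near the 15.1% and 17.7% of all tested genes. Cdkn1a, which encodes the kinase inhibitor p21, was high after BDL in every mouse. It stood at 1.23, 0.89 and 0.81 in FSAP-deficient BDL livers and -5.63, -4.81 and -4.91 in FSAP-deficient sham livers. In WT livers it stood at 2.42, 1.34 and 0.54 after BDL and -4.61, -4.91 and -4.10 after sham. No FSAP-deficient sham array measured it well above background, and it was at least 60.6-fold higher after BDL there. In WT livers, where 2 of 3 sham arrays measured it, it was 62.8-fold higher. WT BDL replicate 1, with the lowest cycle genes of its group, had the highest Cdkn1a of all mice. Replicate 2, the highest of that group for 41 of the 43 genes, stood at 1.34, above replicate 3 at 0.54. A relation of Cdkn1a to the cycle genes was not tested. Btg2, an antiproliferative gene, rose by 2.83 in FSAP-deficient and 3.23 in WT livers. Cdkn1b, which encodes p27, had changes of 0.03 and 0.01.

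Markers of several cell types moved with BDL beside the cycle genes. Of 9 tested cholangiocyte markers, 8 rose in each genotype. Their summed signal, as multiples of the 75th percentile, was 11.9 to 44.4 in FSAP-deficient BDL livers, against 1.34 to 2.01 in FSAP-deficient sham livers. It was 14.4 to 18.3 in WT BDL livers and 1.39 to 1.67 in WT sham livers. On WT BDL replicate 2 the cholangiocyte median over WT sham, 2.53, was lower than on replicates 1 and 3, at 3.31 and 3.47. Macrophage markers rose in 9 of 10 cases in FSAP-deficient and 8 of 10 in WT livers, and stellate and myofibroblast markers in 8 and 4 of 10. Neutrophil and granulocyte precursor markers rose in 5 of 10 and 4 of 10, with summed signals of 24.2 to 73.7 in FSAP-deficient BDL, 5.81 to 11.4 in FSAP-deficient sham, 24.2 to 78.4 in WT BDL and 7.12 to 16.9 in WT sham livers. Their median over WT sham was 3.06, 0.79 and 0.44 on the FSAP-deficient BDL arrays and 1.26, 2.78 and 0.88 on the WT BDL arrays, so WT BDL replicate 2 was also the highest of its group there. FSAP-deficient BDL replicate 1, the highest of its group for these markers, was the lowest for most G2/M genes. Other cell types also differed between the WT BDL mice. On WT BDL replicates 1, 2 and 3 the stellate and myofibroblast median over WT sham was 0.06, 0.98 and 1.00. The hepatocyte median was 0.27, -0.16 and -0.42, and the macrophage median was 1.68, 1.43 and 1.56. Of 10 hepatocyte markers, 6 fell in FSAP-deficient livers and 1 in WT livers. In FSAP-deficient livers 1 of 8 erythroid markers rose and 2 fell, 2 of 8 T and NK cell markers rose and 1 fell, and 1 of 5 B and plasma cell markers fell. In WT livers 2 of 8 erythroid, 5 of 8 T and NK cell and 4 of 5 B and plasma cell markers fell. Of 10 endothelial markers 3 rose and 1 fell in each genotype. Over all tested genes 16.2% rose and 22.8% fell in FSAP-deficient livers, and 15.1% and 17.7% in WT livers, so several of these marker counts are near the background. Klrb1c, of NK cells, and Pax5 and Blk, of B cells, were not well above background on any array. The part of any of these cell types in the cycle genes was not tested.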

How the data were processed

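Liver RNA of 12 mice was hybridised to 12 one-colour Agilent arrays, 3 mice per group. The deposited scanner files hold the intensity of each spot; per the file headers, Feature Extraction 10.5.1.1 with protocol GE1_105_Jan09 made the processed signal, background-subtracted and not scaled between arrays. A deposited table holds the authors' log2 value per probe, by a method not given in the sources used here, and served as an alternative. Probe positions in the files are on mm9.

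The processed intensity was divided by the array's 75th percentile and log2-transformed, with repeated spots averaged, outlier spots left out and the brightest probe kept per gene. The 19531 genes with a signal well above background on 3 or more of the 12 arrays were fitted with limma 3.58.1 in R 4.3.3 as 4 group means, with two-sided tests in 5 comparisons and Benjamini-Hochberg adjustment over all genes at 0.05. Where a gene was not above background in 1 group, a lower bound of the fold, set by that group's detection floor, is given. Named genes were those of 14 landmarks by role, the called ones and the extremes of each phase; other genes named beside them, the list of the 48 members, the phases and all other lists were chosen with earlier results of these data known. Alternatives were other normalizations, filters, probe rules, weights, slide terms and leaving out each array. Fits were tested on simulated data. The number of mice limits the precision.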

Additional observations from a re-analysis of the deposited data

Results flagged for a closer look

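Of the 5 genes outside the test, 2 had signal on a single WT BDL array each. Cenpf, the kinetochore protein, was well above background only on WT BDL replicate 1, at -3.62, against a highest sham level of -6.75. Ttk, the checkpoint kinase, was well above background only on WT BDL replicate 2, at -4.64, against a highest sham level of -6.60. Neither was well above background on any FSAP-deficient BDL array. With 1 array each, neither signal has a replicate.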

How the results depend on the processing

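In FSAP-deficient livers, 13 of the 34 calls after BDL held under every alternative and 25 held without each single array. With any 1 array left out, 25 (without FSAP-deficient BDL replicate 2) to 36 genes rose and 1 to 2 fell, with medians of 1.36 to 1.85 (G1/S) and 3.08 to 3.30 (G2/M). Over all tested genes 13.9% to 16.5% then rose and 17.5% to 23.4% fell. Normexp background correction gave a G2/M median of 1.36, and slide as a fixed term left 14 genes higher. Only 1 gene fell, Tk1 and no longer Tyms, without a filter, with only the 2 groups fitted, with array weights, with slide as a fixed or random term, and with the replicate block. In WT livers, 1 of the 3 calls, Tk1, held under every alternative. With array weights, which gave WT BDL replicate 1 a weight of 0.47 and replicate 2 one of 2.39, 33 genes rose and 1 fell. With only the 2 groups fitted, 3 rose and 1 fell, where 16.8% of all tested genes rose and 19.5% fell. None (0) rose by limma with normexp, without a filter or with slide as a fixed term, against 7 at an unadjusted p under 0.05 in the main setting. Slide as a fixed term, like slide 1 alone, gave medians of -0.36 and -0.22. Leaving out 1 array gave 0 (without WT BDL replicate 2) to 13 (without WT BDL replicate 1) genes higher, 1 to 2 lower, and medians of -0.10 to 0.67 and 0.22 to 2.24. After BDL, 1 gene, Cdt1, was higher in FSAP-deficient than in WT livers with quantile normalization, normexp, the stricter filter (well above background on all arrays of a group) and the authors' deposited log2 values. In these settings 0.174% to 0.399% of all tested genes were called higher. Leaving out 1 array gave 0 to 12 genes, with medians of 0.86 to 1.69 and 0.52 to 2.37. In sham livers 1 gene, Tpx2, was higher with array weights, where 1.52% of all tested genes were. Slide as a fixed term gave medians of -0.98 and -2.78, reached only through BDL arrays. Leaving out 1 array gave no call in sham livers (0), with medians of -0.28 to -0.12 and -0.84 to -0.09. The interaction had a G1/S median of 0.76 with array weights. With slide fixed its medians were 1.89 and 3.46, and they rest on WT BDL replicate 1 as the only WT BDL array. Leaving out 1 array gave it 0 to 1 calls, with medians of 0.97 to 1.73 and 0.98 to 2.94. Tpx2 reversed when its probes were averaged, to 2.22 in FSAP-deficient livers, 0.58 after BDL, -0.25 in sham livers and 0.83 in the interaction. In WT livers Cdc6 reversed with normexp (-0.0567) and Ncapd2 with slide fixed (-0.15), and without single arrays it ran from -0.0908 (without WT BDL replicate 2) to 0.59. In sham livers Ccne1 reversed with slide fixed (-0.68). Same-numbered arrays deviated together no more than others (r of -0.20 to 0.19). A pairing that leaves no such correlation would not be seen, so whether the numbers pair the mice is not known. The replicate block gave 33 higher and 1 lower in FSAP-deficient livers, 1 and 2 in WT livers, and 0 in the other comparisons. Over all tested genes it gave 16% higher and 21.6% lower in FSAP-deficient livers, and 14.9% and 16.7% in WT livers. The causes of these shifts were not tested. Genes near background, among them Top2a, Bub1 and Kif2c, have only bounds in sham livers.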
